A study of Mus musculus with 24 samples.

Results

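The comparison concerns how the difference between NOD islets and control islets changed between 10 days and 4 weeks of age. NOD mice (NOD/LtJ) develop autoimmune diabetes. The control strain, NOD.B10 (NOD.B10Sn-H2b/J), shares the NOD background but has a different version of the major histocompatibility complex (MHC), and it stays free of the disease. Islets of each female NOD mouse, freed with collagenase, gave 300 ng of RNA that was labelled with Cy5. It was hybridised on an Agilent two-colour array against a Cy3-labelled pool from 6 female NOD.B10 mice of equal age. There were 6 NOD mice of 10 days and 6 of 4 weeks, so 12 of the 24 arrays of the series carry this contrast; the rest came from mice of 12 and 20 weeks. The arrays were chosen by label alone, every array of these ages. The 18071 genes are those with a probe well above background in either channel on at least 6 of the 24 arrays. A gene could thus enter through the other ages. The labels do not say whether the arrays of an age shared 1 pool; their pool channels were nearly identical (given below), so each age is counted as having 1 control sample. Values below are log2(NOD/pool), called the ratio, where 1 unit is a 2-fold difference, and the change is the ratio at 4 weeks minus the ratio at 10 days.

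The islet is a cluster of hormone-secreting cells set in a tissue of enzyme-secreting acinar cells, ducts, vessels and connective tissue. At 10 days a mouse pup is suckling and its beta cells are still maturing, which involves gain of glucose sensing and silencing of genes that mature beta cells keep off. Weaning falls between these ages, and infiltration of NOD islets by lymphocytes begins at about the later one. An islet preparation also carries acinar and stromal cells, in amounts that vary with age and digestion. In such bulk RNA, fewer cells of a type and less RNA per cell cannot be told apart.

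Of the 18071 genes, 1628 (9.01%) changed at least 2-fold with an adjusted p under 0.05 by limma's moderated test, and these are the genes called below. Of them 932 were higher at 4 weeks (5.16% of genes tested) and 696 were lower (3.85%). At any fold, 9209 genes (51%) had an adjusted p under 0.05. The mice of one age did not overlap those of the other for 1399 of the called genes, against 4824 (26.7%) of all genes. Most changes of the called genes crossed 0. The median ratio of each array is set close to 0 and a call needs a 2-fold change, so crossing is partly built in. Among the genes that were higher at 4 weeks, 888 of 932 had been below the pool at 10 days and 856 were above their pool at 4 weeks. Among those that were lower, 685 of 696 had been above the pool at 10 days and 673 were below it at 4 weeks.

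The 10 largest rises among named genes without overlap between the ages were in Celsr1, Col1a1, Ptger3, Gpc3, Slc12a8, Hkdc1, Col5a1, Cdc42ep1, Vegfd and Cachd1, from 3.26 down to 2.68. Celsr1, an adhesion receptor of planar cell polarity, led them: its ratio ran from -2.07 through a median of -1.38 to -1.30 at 10 days and from 1.09 through 1.67 to 2.89 at 4 weeks (change 3.26, SE 0.49, adjusted p = 1.34e-05). The 10 largest falls were in Ppy, Glycam1, Galnt14, Chga, Syt13, Hspa1a, Pyy, Dnaja4, Resp18 and Chgb, from -4.06 to -2.78. The rule that named these 20 genes required separate groups of mice, so their separation is not a finding. Other probes read less for some of them, 1.13 for Ptger3, 1.52 for Cdc42ep1, -0.97 for Syt13 and -0.55 for Dnaja4.

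Loess normalization sets the median ratio close to 0 on every array, so each direction here is relative to the median gene. When each array was centred on its median in place of loess, the median change of all genes was -0.60 against -0.01, and 5905 genes were called, of which 1.88% were higher. With the scanner's own log ratios the median was -0.07, and 45.8% of 4542 called genes were higher, against 57.2% of 1628. A called rise is therefore a rise against the median gene of these arrays, and list medians under median centring are given below less that median of -0.60.

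The scanner marked between 49.1% and 62.9% of probes as well above background for NOD RNA at 10 days and between 44.03% and 47.96% for pool RNA; at 4 weeks the ranges were 50.7% to 58.1% and 52.8% to 59.8%. Mice of an age correlated across genes with a median r of 0.69 at 10 days and 0.74 at 4 weeks. Between the ages, 3 of 36 pairs of arrays, all of one dye orientation, fell below -0.3, the lowest at -0.39. The dyes are stated in the labels, so the direction was kept. Each slide carries 4 arrays, and 1 slide held both ages, with 2 mice of each. Within it, all 1628 called genes changed in the same direction, as did 90.7% of all genes; its 4 mice are among the 12 that made the calls, so this is no independent check. With the slide as a block, 24 of the 127 called genes that the rule for named genes picks lost their call, among them Reg1, Thy1, Cxcl9, Cxcl10, Cxcl13, Ccl2, Ccl7, Icam1, Cfd, Tff2, Krt19, Vwf, Klf2, Dlk1, Slc2a2, Cpa1, Ctrb1, Cel and Bhlha15. On 1 array, of 10 day replicate 4, the 10 spike-in controls stood apart, with a median log2 ratio of -2.48 against -0.15 to 0.58 on the others of that age. Without that mouse 1744 genes were called. The spike-in controls also differed between the ages. Their array medians ran from 0.47 to 1.75 at 4 weeks, with a middle value of 0.94, against a middle value of 0.02 at 10 days. The ranges of the ages overlapped. Whether this difference shifted the changes of genes was not tested.

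Since a ratio can change through either channel, the contrast was split into the change of the NOD channel and the change of the pool channel, which has no biological replicate and so no test. The pool moved more than the NOD mice for 1376 of the 1628 called genes (84.5%), against 66.2% of all genes. For called genes that were higher at 4 weeks, the median change was 0.10 in the NOD channel and -1.35 in the pool. For those that were lower it was 0.10 in the NOD channel and 1.54 in the pool. Over all genes, 680 changed 2-fold in the NOD channel and 2362 in the pool channel. The pool channels of an age correlated with each other at 0.991 to 0.999 and across the ages at 0.921 to 0.931, while NOD arrays correlated at 0.951 to 0.993 within an age and at 0.924 to 0.974 across. The count was 1373 with channels quantile normalized and 1366 with the scanner's processed signals. Whether the change of the pools holds in other NOD.B10 mice was not tested.

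**Figure D1:**
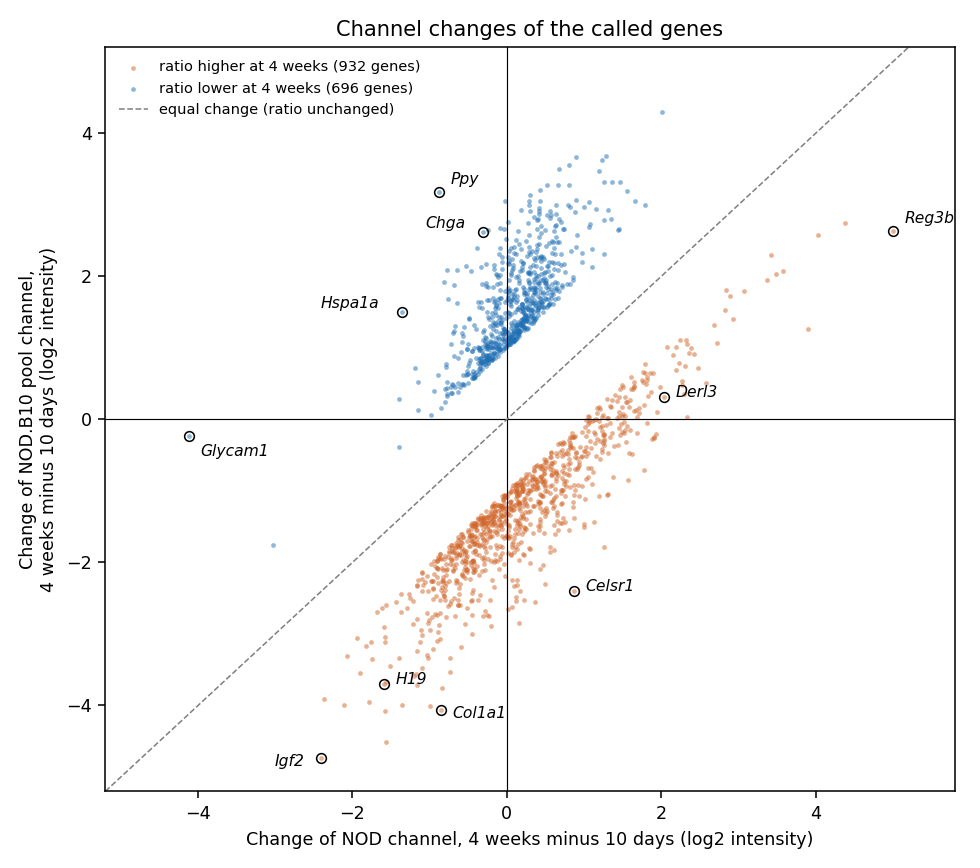
Change of the NOD channel (x) and of the NOD.B10 pool channel (y), in log2 intensity, for the 1628 called genes, 932 higher and 696 lower. The NOD change is the mean of 6 mice at 4 weeks minus the mean of 6 at 10 days. The pool change is also 4 weeks minus 10 days, counted as 1 pool per age. Circles mark 10 named genes. Most points lie near the vertical axis and away from the horizontal one, with Glycam1 (-4.12 in the NOD channel, -0.24 in the pool) among the exceptions.

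Genes of the endocrine cells went from above the pool at 10 days to below it at 4 weeks. Chga, Chgb and Scg2 encode granins, which pack hormones into dense-core granules, and Pcsk1 encodes the convertase that cuts proinsulin. Of 23 secretory granule genes measured, 16 fell and 0 rose, with a median change of -2.21 against -0.01 over all genes. The 23 genes of beta cell function had 18 falls and 0 rises (median -1.80), and the 21 islet transcription factors 15 falls and 0 rises (median -1.31). Relative to the median gene under median centring these medians were -2.53, -2.26 and -1.68. On the slide that held both ages they were -2.48, -2.17 and -1.80.

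The 250 bases before the RefSeq start of 4 endocrine genes (GRCm38.p6), 5′ to 3′ on the gene's strand, are shown because the genes moved together and share a known regulatory element. Capitals mark TGACGTCA, the cyclic AMP response element, through which CREB acts; it reads the same on both strands and stood in 1.55% of all 32851 windows of this length.

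Chgb (chr2:132781392-132781641, plus strand): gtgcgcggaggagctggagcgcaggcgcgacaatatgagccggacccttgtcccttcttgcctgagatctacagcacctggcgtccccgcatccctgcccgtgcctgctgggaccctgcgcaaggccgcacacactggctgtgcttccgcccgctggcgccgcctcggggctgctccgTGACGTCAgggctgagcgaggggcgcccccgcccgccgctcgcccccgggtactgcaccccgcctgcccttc
Scg2 (chr1:79440027-79440276, minus strand): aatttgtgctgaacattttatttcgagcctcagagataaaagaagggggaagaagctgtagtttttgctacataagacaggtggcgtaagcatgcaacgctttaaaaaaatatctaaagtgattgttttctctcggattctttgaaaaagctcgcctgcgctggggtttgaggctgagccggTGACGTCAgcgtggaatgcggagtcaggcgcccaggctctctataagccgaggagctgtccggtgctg
Pcsk1 (chr13:75089607-75089856, plus strand): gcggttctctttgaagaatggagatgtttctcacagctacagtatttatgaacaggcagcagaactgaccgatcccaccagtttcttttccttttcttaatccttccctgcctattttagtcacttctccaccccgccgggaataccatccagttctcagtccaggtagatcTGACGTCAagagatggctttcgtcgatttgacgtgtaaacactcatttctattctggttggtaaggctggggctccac
Sst (chr16:23890845-23891094, minus strand): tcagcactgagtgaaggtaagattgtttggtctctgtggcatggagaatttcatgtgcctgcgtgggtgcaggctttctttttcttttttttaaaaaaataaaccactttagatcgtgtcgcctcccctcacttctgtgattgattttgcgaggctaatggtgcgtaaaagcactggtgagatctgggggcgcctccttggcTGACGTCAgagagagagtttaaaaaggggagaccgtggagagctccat

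The element was present in 3 of 18 secretory granule genes with a window (Chgb, Scg2 and Pcsk1) and in 1 of 15 genes of the other endocrine cells, Sst. A gene was counted if any of its windows held the element, so these counts are not on the scale of the share of single windows. A match describes these letters only. The 4 genes were chosen for the match after their values were seen. Their changes were -2.78 (Chgb), -2.61 (Scg2), -2.39 (Pcsk1) and -2.74 (Sst).

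Chga (chromogranin A; probe on mm9 chromosome 12, 103803083 to 103803142) had ratios from 1.18 through a median of 2.55 to 2.67 at 10 days and from -1.32 through -0.65 to -0.35 at 4 weeks. Chga was named by a rule that required its ages to be separate. The change was -2.93 (SE 0.32, adjusted p = 3.62e-07), made of -0.30 in the NOD channel and 2.62 in the pool. Resp18, Chgb and Scg5, whose products serve granule assembly and prohormone processing, fell by 2.82, 2.78 and 2.78. The same rule required separate ages of Resp18 and Chgb, and Scg5 had them too. The NOD channel changed by 0.67, -0.39 and 0.43 in these 3 genes and the pool by 3.50, 2.39 and 3.21.

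Among the hormones, Ppy (pancreatic polypeptide, mm9 chromosome 11, 101961581 to 101961877) had the largest fall of all genes. Its ratio ran from 2.25 through 3.20 to 3.96 at 10 days and from -2.43 through -0.93 to 0.69 at 4 weeks. The spread was wide among the mice of 4 weeks (SD 1.21, n = 6), and separate ages were required by the rule that named the gene. The change was -4.06 (SE 0.62, adjusted p = 1.57e-05), with -0.88 in the NOD channel and 3.18 in the pool. Pyy (peptide YY) fell by 2.85, Sst (somatostatin of delta cells) by 2.74 and Gcg (glucagon of alpha cells) by 2.66. A second probe of Gcg read -0.14, so the size of its fall rests on the brighter probe. Of 18 genes of the other endocrine cells, 10 fell and 1 rose, and the one that rose, named here after its value was seen, was Gast (1.196), which encodes gastrin.

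Both insulin genes fell. Ins2 had ratios from 0.79 through 2.06 to 2.78 at 10 days and from -1.66 through -0.55 to -0.27 at 4 weeks. The ages were separate, and the change was -2.55 (SE 0.46, adjusted p = 9.87e-05; second probe -2.71). Ins1 ran from 0.12 through 1.36 to 2.35 and then from -2.31 through -1.43 to -1.11, a change of -2.73 (SE 0.55, adjusted p = 0.000325). Ins1 and Ins2 are close paralogs, and the probe of one may also bind RNA of the other. The NOD channel changed by -0.64 for Ins1 and -0.68 for Ins2, and the pool by 2.08 and 1.87.

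Genes of glucose sensing and insulin release moved alike. G6pc2, a glucose-6-phosphatase of the islet, fell by 2.70, and Abcc8, the sulfonylurea receptor subunit of the ATP-sensitive potassium channel, by 2.62, while the second probe of Abcc8 read -0.49. Slc2a2, the glucose transporter GLUT2, fell by 2.02 (adjusted p = 0.00202) and Ucn3, urocortin 3, a marker of beta cell maturity, by 1.78. In the NOD channel itself Ucn3 rose by 1.16 and Slc2a2 by 0.61, without a test, and in the pool they rose by 2.94 and 2.63.

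Of the transcription factors, Mlxipl (the carbohydrate response factor ChREBP) changed most. Its ratios ran from 1.11 through 2.06 to 2.28 at 10 days and from -1.04 through -0.94 to -0.73 at 4 weeks. The mice of 4 weeks lay close together (SD 0.12, n = 6), away from those of 10 days (change -2.77, SE 0.31, adjusted p = 4.45e-07; second probe -1.58). Isl1, needed for islet cell differentiation, and Nkx6-1, a beta cell identity factor, both fell by 2.47, and Myt1 fell by 2.02. Mafa and Pdx1, activators of insulin transcription, fell by 1.31 and 1.11, and their ages did not overlap. For Mafa the pool channel was well above background on 3 of 6 arrays of 10 days, so the size of its fall is uncertain.

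**Figure D2:**
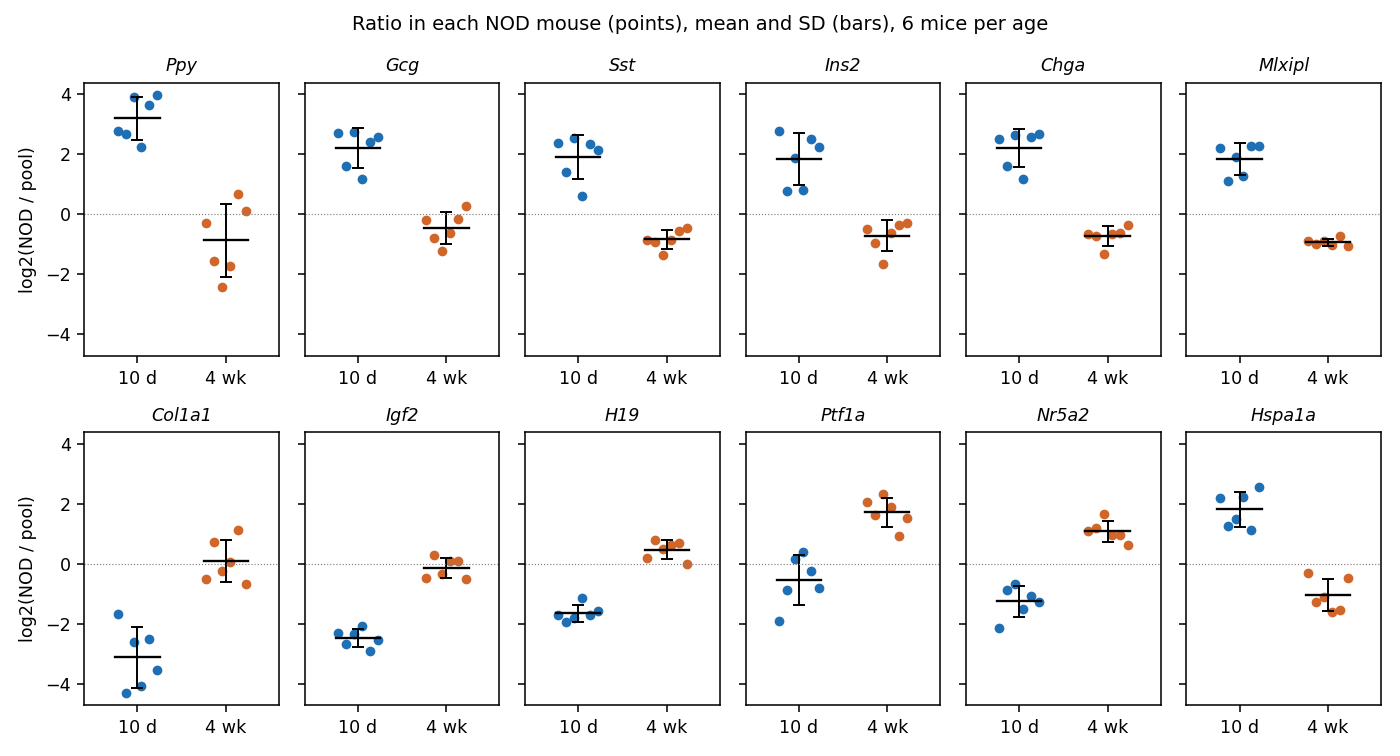
Ratio log2(NOD/pool) of 12 genes in each NOD mouse of 10 days (blue) and 4 weeks (orange), with the mean and SD of 6 mice per age. The ages do not overlap in any of the 12 genes, which the naming rule required of Ppy, Chga, Col1a1 and Hspa1a. Among the mice of 10 days, replicate 1 is the lowest for Ptf1a (-1.91) and the highest for Col1a1 (-1.68).

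Connective tissue genes went the opposite way, from well below the pool at 10 days to near it at 4 weeks. Of 33 stellate cell and fibroblast genes, 25 rose and 0 fell (median change 1.55). Of 18 collagen genes, 12 rose and 0 fell (median 1.38). Less the median gene under median centring these medians were 1.37 and 1.14, and with that centring 10 and 4 genes were called higher and 0 lower. The median ratio of the fibroblast list lay between -1.98 and -0.64 in mice of 10 days and between -0.16 and 0.82 in mice of 4 weeks, so the ages did not overlap.

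Col1a1, the main chain of fibrillar collagen (mm9 chromosome 11, 94813075 to 94813134), ran from -4.31 through -3.09 to -1.68 at 10 days and from -0.66 through -0.10 to 1.13 at 4 weeks. Mice of 10 days were spread widely (SD 1.02, n = 6). That all were below all mice of 4 weeks was required by the naming rule. The change was 3.21 (SE 0.38, adjusted p = 8.69e-07), with -0.85 in the NOD channel and -4.06 in the pool. The second probe read 2.06. Col5a1, a chain that sets fibril diameter, rose by 2.91 with a second probe at 0.24, and Col3a1 by 2.38 with a second probe at 0.43, so these sizes depend on the probe. Col1a2, with 1 probe, rose by 2.25.

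Among the matrix genes outside the collagens, Gpc3, a glypican of growing tissue, ran from -1.98 through -1.39 to -0.60 and then from 1.26 through 1.77 to 2.12. It stood above the pool in every mouse of 4 weeks, as Col1a1 did not (change 3.01, SE 0.26, adjusted p = 1.98e-08). Adamts2, the procollagen peptidase, rose by 2.67 with a second probe at 1.2001, Lum (lumican) by 2.61, Fbln1 (fibulin 1) by 2.44 and Dcn (decorin) by 2.07, with overlapping ages for Dcn. The NOD channel changed by -0.99 for Gpc3, -0.73 for Lum and -0.68 for Dcn, and the pool by -4.01, -3.34 and -2.75.

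Igf2, H19, Mest, Grb10 and Dlk1 are imprinted genes that are active in fetal growth and fall silent after birth in most tissues. Igf2 (growth factor; mm9 chromosome 7, 149836673 to 149836709) ran from -2.91 through -2.44 to -2.07 at 10 days and from -0.50 through -0.13 to 0.28 at 4 weeks. The ages stood apart, and the change was 2.33 (SE 0.16, adjusted p = 9.82e-10; second probe 2.01). H19, the noncoding RNA beside it (mm9 chromosome 7, 149761769 to 149761828), ran from -1.94 through -1.72 to -1.13 and then from -0.01 through 0.56 to 0.80, a change of 2.11 (SE 0.12, adjusted p = 6.31e-11). Both channels went down, the NOD channel by less: -2.40 against -4.74 in the pool for Igf2, and -1.59 against -3.70 for H19. Mest rose by 1.94 in ratio, Grb10 by 1.48 and Dlk1 by 1.02, though Grb10's other probes read 0.19 and 0.25. For Dlk1 the ages overlapped, and its call was lost without any one of 4 mice (10 day replicates 2 and 4, 4 week replicates 2 and 4). Of 24 imprinted and fetal growth genes measured, 7 rose, 3 fell and 14 were not called, with a median of 0.25 (2 higher and 9 lower under median centring), and the 3 that fell, named after their values were seen, were Meg3 (-1.27), Peg3 (-1.08) and Impact (-1.13).

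Acinar genes rose. The 28 digestive enzyme genes gave 19 rises and 0 falls (median change 1.59), and 20 acinar transcription factors and secretory genes gave 14 rises and 0 falls (median 1.55). Less the median gene under median centring these medians were 1.32 and 1.19, and with that centring 2 and 6 genes were called higher and 0 lower. The mice were uneven: 10 day replicate 1 had a median enzyme ratio of -1.50 and the other 5 mice of that age lay between -0.43 and 0.47, against 1.02 to 1.68 at 4 weeks. Without that mouse 10 enzyme genes were called in place of 19. With the slide as a block, which leaves 2 mice against 2, 2 enzyme genes were called, with a larger median of 1.82.

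For 3 enzyme genes, chosen for the match with their values known, the 250 bases before the RefSeq start (GRCm38.p6) are shown. Capitals mark TTTCCCA or its reverse complement. These letters are the part of the PTF1 site that RBPJ or RBPJL reads, PTF1 being the complex that drives acinar genes. On either strand, 6 of 26 enzyme genes with a window held it in any of their windows, and 6.82% of all single windows held it. Genes with several windows had more chances, so the gene count and the window share are on unlike scales.

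Cpa1 (chr6:30638968-30639217, plus strand): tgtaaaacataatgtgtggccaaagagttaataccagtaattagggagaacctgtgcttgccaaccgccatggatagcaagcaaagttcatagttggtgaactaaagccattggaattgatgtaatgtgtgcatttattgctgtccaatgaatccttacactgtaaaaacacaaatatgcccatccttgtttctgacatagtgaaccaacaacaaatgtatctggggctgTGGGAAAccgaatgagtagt
Ctrb1 (chr8:111691011-111691260, minus strand): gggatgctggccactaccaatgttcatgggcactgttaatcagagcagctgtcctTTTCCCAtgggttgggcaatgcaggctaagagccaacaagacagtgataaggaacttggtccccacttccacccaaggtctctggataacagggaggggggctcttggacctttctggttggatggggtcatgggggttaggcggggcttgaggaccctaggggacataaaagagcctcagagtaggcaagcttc
Cel (chr2:28563404-28563653, minus strand): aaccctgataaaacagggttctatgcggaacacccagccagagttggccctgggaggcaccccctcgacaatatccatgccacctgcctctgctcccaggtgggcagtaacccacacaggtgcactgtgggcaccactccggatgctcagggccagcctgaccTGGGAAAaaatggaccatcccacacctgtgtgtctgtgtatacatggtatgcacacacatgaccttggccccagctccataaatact

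Cpa1 (carboxypeptidase A1) ran from -1.73 through -0.20 to 0.46 at 10 days and from 1.16 through 1.55 to 1.74 at 4 weeks. The ages did not overlap, and the change was 1.81 (SE 0.55, adjusted p = 0.00834). Ctrb1, a chymotrypsinogen, changed by 1.81 and Cel, the bile-salt-activated lipase, by 1.72, each with 0.50 to 0.60 in the NOD channel and -1.31 to -1.12 in the pool. The trypsinogens Prss3 and Try5 rose by 2.42 and 2.19; this family has near-identical members, and which of them a probe read is uncertain. Amy2a5 (pancreatic amylase) and Pnlip (pancreatic lipase) were not called, with changes of 0.33 (adjusted p = 0.66) and 0.30 (adjusted p = 0.69). At 10 days they were already above the pool, with median ratios of 1.61 and 1.51. Pnlip rose by 4.79 in the NOD channel and by 4.49 in the pool, without a test, while its ratio moved little.

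Rbpjl, the acinar partner of PTF1 (mm9 chromosome 2, 164240195 to 164240254), ran from -3.30 through -1.49 to -1.23 at 10 days and from 0.44 through 0.77 to 1.66 at 4 weeks. The lowest value was again that of replicate 1, and the change was 2.65 (SE 0.59, adjusted p = 0.000722). Ptf1a, the other subunit, rose by 2.27, the nuclear receptor Nr5a2 by 2.33 and Bhlha15 (Mist1) by 1.77, with overlap between the ages for Bhlha15 and a second probe at 0.28. Gatm, an enzyme of creatine synthesis that is abundant in acinar cells, rose by 2.57 and the water channel Aqp8 by 2.42. For Rbpjl, Ptf1a and Nr5a2 the pool changed by -2.54, -1.07 and -1.78 and the NOD channel by 0.11, 1.198 and 0.55.

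The ratios of the endocrine and acinar lists thus changed in opposite directions on the same arrays. In the NOD channel itself both the beta cell and the acinar enzyme median rose, by 0.35 and 0.58, without a test. In the pool these medians changed by 2.085 and -0.98. The median of the beta cell list ran from 0.39 to 1.56 at 10 days and from -0.87 to -0.39 at 4 weeks. The part of acinar RNA in the fall of endocrine ratios was not tested. Relative to the pool, all 6 mice of 4 weeks had both a higher acinar and a lower beta cell median than any mouse of 10 days.

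**Figure D3:**
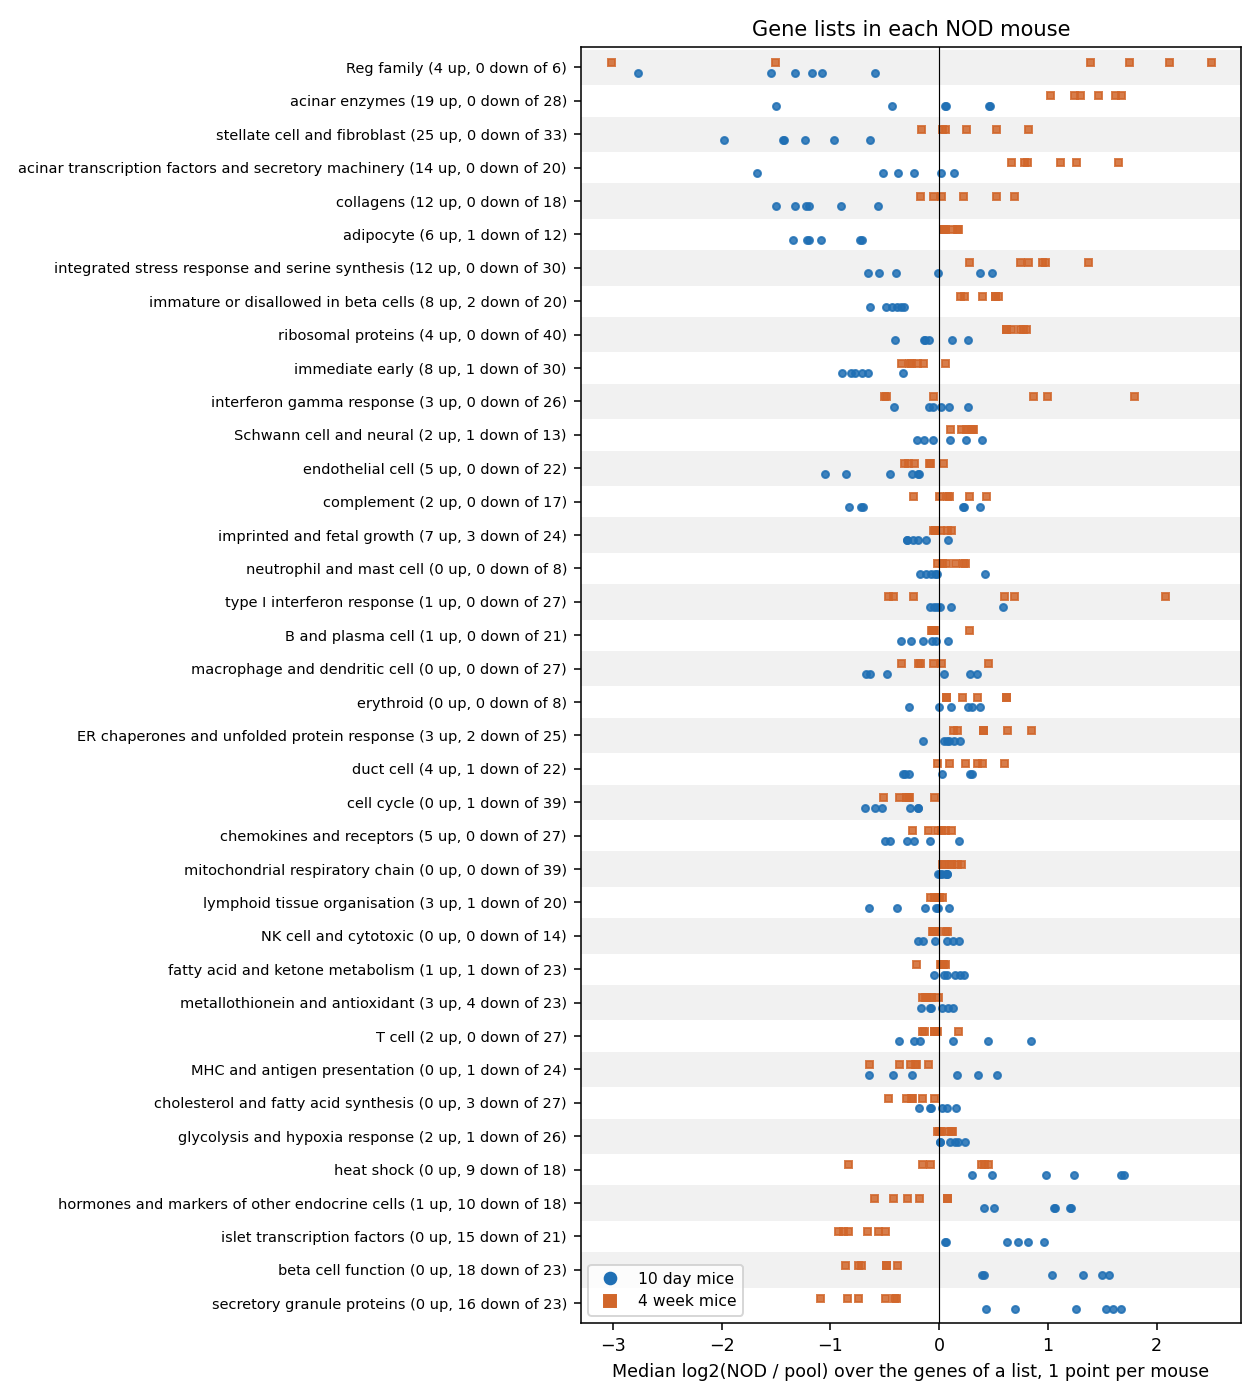
Median ratio of each of 38 gene lists in each mouse of 10 days (blue circles) and 4 weeks (orange squares), ordered by the change, with the number of called genes beside each name. Toward both ends of the plot the ages are separate in many lists, as in acinar enzymes (1.02 to 1.68 against -1.50 to 0.47). They overlap in the Reg family, the list with the largest rise, and in heat shock genes. In the middle of the plot the ages are mixed.

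The Reg family, secreted lectins of acinar cells that respond to inflammation and feeding, gave 4 rises among 6 genes (median change 2.11), and the mice of 4 weeks were uneven. The count was 2 without 10 day replicate 1 or any one of 4 week replicates 1, 2, 4 and 6. It was 6 without 4 week replicate 5, and 1 under median centring. Reg3b (mm9 chromosome 6, 78323323 to 78323382) ran from -2.94 through -2.20 to -0.96 at 10 days and from -3.56 through 1.16 to 2.98 at 4 weeks. Replicates 3 and 5 of 4 weeks lay below every mouse of 10 days (-3.08 and -3.56) and the other 4 mice above the pool, so the groups overlapped. The change was 2.37 (SE 0.90, adjusted p = 0.0318), and the call was lost without any one of 7 of the 12 mice. Reg3a showed the same 2 mice low, at -3.45 and -3.08, with a change of 2.63 (adjusted p = 0.0285), and lost its call without any one of 5 mice. Reg3d (2.41) and Reg1 (1.85) had no overlap between the ages.

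**Figure D4:**
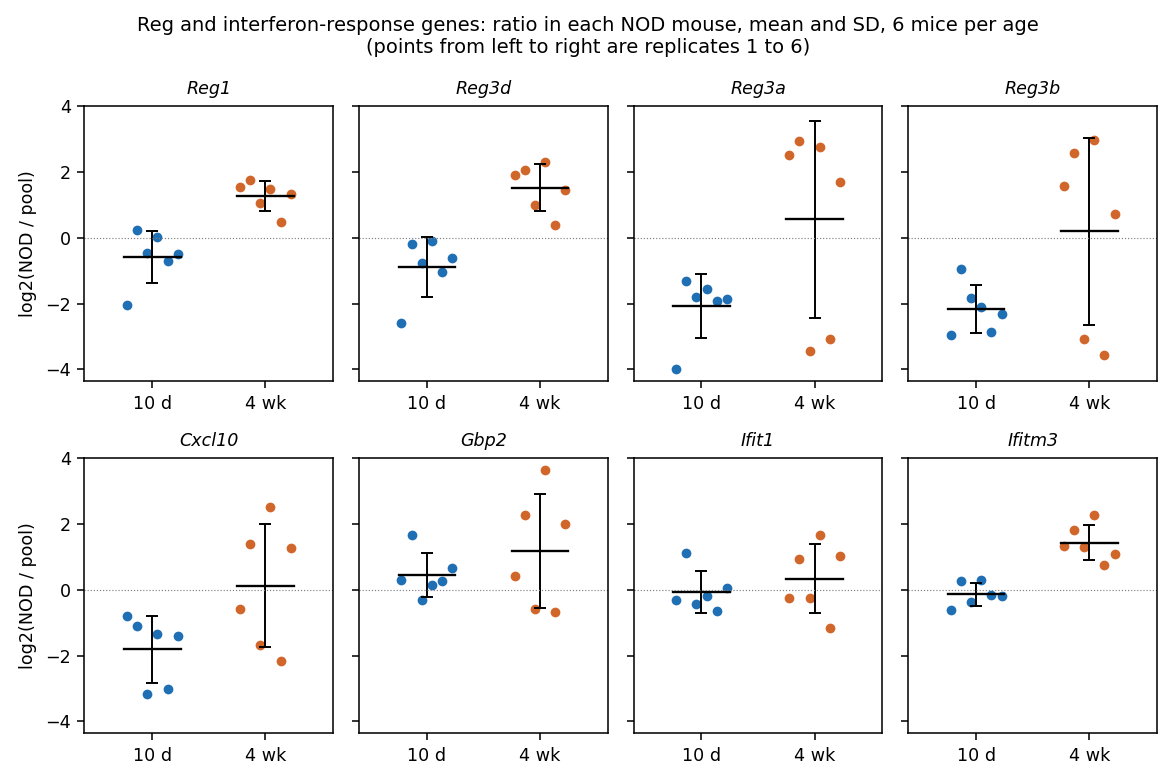
Ratio log2(NOD/pool) of 4 Reg genes and 4 interferon-response genes in each mouse, with the mean and SD of 6 mice per age; points from left to right are replicates 1 to 6, an order with no meaning. At 4 weeks Reg3a and Reg3b split into 4 mice above 0 and 2 below -3, and Cxcl10, Gbp2 and Ifit1 are highest in replicate 4 (2.51, 3.64 and 1.66).

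Of 18 heat shock genes, cytosolic chaperones and the mitochondrial chaperonins among them, 9 fell and 0 rose (median change -0.99; -1.41 less the median gene under median centring). Many of these genes are induced by heat and by handling of cells. Under median centring 15 fell. With the slide as a block 4 of the 18 were called, at a median of -0.95. The promoters of Hspa1a and Dnaja1 (250 bases, GRCm38.p6) follow with the heat shock element GAANNTTC, the site of HSF1, in capitals. It was held in any of their windows by 6 of 13 heat shock genes with a window, and by 6.69% of all single windows. A gene with several windows had more chances, so these shares are not on one scale. The element is its own reverse complement. Dnaja1 has more than 1 RefSeq start, and the window of 1 of them is shown.

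Hspa1a (chr17:34972157-34972406, minus strand): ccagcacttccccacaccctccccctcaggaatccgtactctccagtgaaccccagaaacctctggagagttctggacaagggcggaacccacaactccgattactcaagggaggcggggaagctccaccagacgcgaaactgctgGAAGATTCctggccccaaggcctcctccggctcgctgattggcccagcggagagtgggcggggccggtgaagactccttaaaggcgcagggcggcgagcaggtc
Dnaja1 (chr4:40722218-40722467, plus strand): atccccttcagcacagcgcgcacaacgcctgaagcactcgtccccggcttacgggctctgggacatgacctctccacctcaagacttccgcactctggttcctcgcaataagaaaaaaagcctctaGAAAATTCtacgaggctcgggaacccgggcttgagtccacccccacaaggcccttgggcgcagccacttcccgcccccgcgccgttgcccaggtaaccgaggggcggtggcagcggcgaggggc

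Hspa1a (inducible HSP70; mm9 chromosome 17, 35106766 to 35106825) ran from 1.11 through 1.85 to 2.55 at 10 days and from -1.60 through -1.19 to -0.33 at 4 weeks. Separate ages were required by the naming rule. The change was -2.86 (SE 0.31, adjusted p = 3.35e-07 by limma's moderated test), and the second probe read -2.86. Hspa1b, a near-identical copy whose RNA its probe may share, fell by 2.45. Dnajb1, the HSP40 cochaperone, fell by 2.74 (second probe -1.36), Hsph1 (HSP110) by 2.53 and Dnaja1, shown for its element, by 1.91. For Hspa1a the NOD channel fell by 1.36 and the pool rose by 1.499, so both channels contributed.

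Immediate early genes respond within minutes to stimuli and to tissue dissociation. Of 30, 8 rose and 1 fell, with a median of 0.69 (0.36 less the median gene under median centring, with 0 higher and 4 lower). Myc rose by 2.05, with its other probes at 1.18 and 1.94. Ier2 rose by 1.47 and Klf2 by 1.44, but their second probes read 0.42 and 0.02, and both calls were lost with the mean of the probes. Npas4, a calcium-dependent factor of neurons and beta cells, fell by 2.17. It was above the pool in every mouse of 10 days (0.40 to 1.84) and below it in every mouse of 4 weeks (-1.65 to -0.27). At 10 days its pool channel was well above background on 2 of 6 arrays, so the size of the fall is uncertain. Fos and Egr1 were not called (0.36, adjusted p = 0.594, and 0.60, adjusted p = 0.136). Both stayed below the pool in all 12 mice.

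Of 30 genes of the integrated stress response and of serine synthesis, 12 rose and 0 fell (median 0.96; 0.54 less the median gene under median centring). Under median centring itself 1 was called higher and 4 lower, and without any one of 10 day replicates 3 and 5 and 4 week replicates 4 and 6, 1 gene fell. Phgdh and Psat1, the first enzymes of serine synthesis, are targets of the factor ATF4. Psat1 ran from -0.98 through -0.12 to 1.01 at 10 days and from 1.63 through 1.95 to 2.52 at 4 weeks. All mice of 4 weeks were above all of 10 days (change 1.94, SE 0.38, adjusted p = 0.000211). Phgdh rose by 2.07, the cystathionine lyase Cth by 1.87 and Eif4ebp1, a brake on translation, by 1.71, though a second probe of Eif4ebp1 read 0.18. Ddit3 (CHOP), the death-linked factor of this response, was not called (-0.94, adjusted p = 0.0695), and 4 week replicate 5 stood low for it at -2.02.

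The promoter of Asns, the asparagine synthetase gene that ATF4 activates, is shown with TGATGNAA, the letters of the C/EBP-ATF element, in capitals. The change of Asns was 1.49 (adjusted p = 0.00466 by limma's moderated test). Counting either strand, 8 of 25 list genes with a window held the letters in any window, and 3.45% of single windows held them. Several windows give a gene more chances, so the count and the share are not directly comparable.

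Asns (chr6:7693210-7693459, minus strand): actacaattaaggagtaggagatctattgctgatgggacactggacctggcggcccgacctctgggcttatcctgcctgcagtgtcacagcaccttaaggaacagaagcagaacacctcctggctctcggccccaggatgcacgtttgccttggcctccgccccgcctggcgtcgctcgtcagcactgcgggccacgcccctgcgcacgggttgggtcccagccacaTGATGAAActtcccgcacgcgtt

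Over all genes 5.16% were called higher and 3.85% lower. In the endoplasmic reticulum list, 3 of 25 genes rose and 2 fell, with a median of 0.16. It was -0.21 less the median gene under median centring, with which 1 rose and 8 fell. Without 4 week replicate 4, 5 rose, and without 10 day replicate 1 or 3 or 4 week replicate 3, 1 fell. Sel1l, Derl3 and Edem1, which remove misfolded proteins from the reticulum, rose by 2.35, 1.73 and 1.44. Derl3 is one of the genes in which the NOD channel moved more (2.04, against 0.31 in the pool). Wfs1, the wolframin gene of beta cells, fell by 1.92, while Hspa5, the chaperone BiP, was not called (0.13, adjusted p = 0.523).

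Genes that mature beta cells keep silent or lose as they mature gave 8 rises and 2 falls among 20 (median 0.94; 0.72 less the median gene under median centring). Under median centring itself the counts were 0 and 2, and without 10 day replicate 1 they were 11 and 1. Ldha, the lactate dehydrogenase that beta cells disallow (mm9 chromosome 7, 54110889 to 54110948), ran from -0.71 through -0.38 to 0.02 at 10 days and from 1.07 through 1.45 to 1.58 at 4 weeks. The mice of each age lay close together, and the change was 1.73 (SE 0.11, adjusted p = 5.81e-10; second probe 1.63). It was made of -0.15 in the NOD channel and -1.88 in the pool. Hk2, a high-affinity hexokinase, rose by 1.92. Tgm2 rose by 1.83 and Rest, a repressor of neuronal and islet genes, by 1.66, but other probes read 0.35 and 0.36 for Tgm2 and 0.27 to 0.79 for Rest, and both calls were lost with the mean of the probes. These genes are also expressed by the acinar and stromal cells whose own lists rose, and the part of those cells was not tested.

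**Figure D5:**
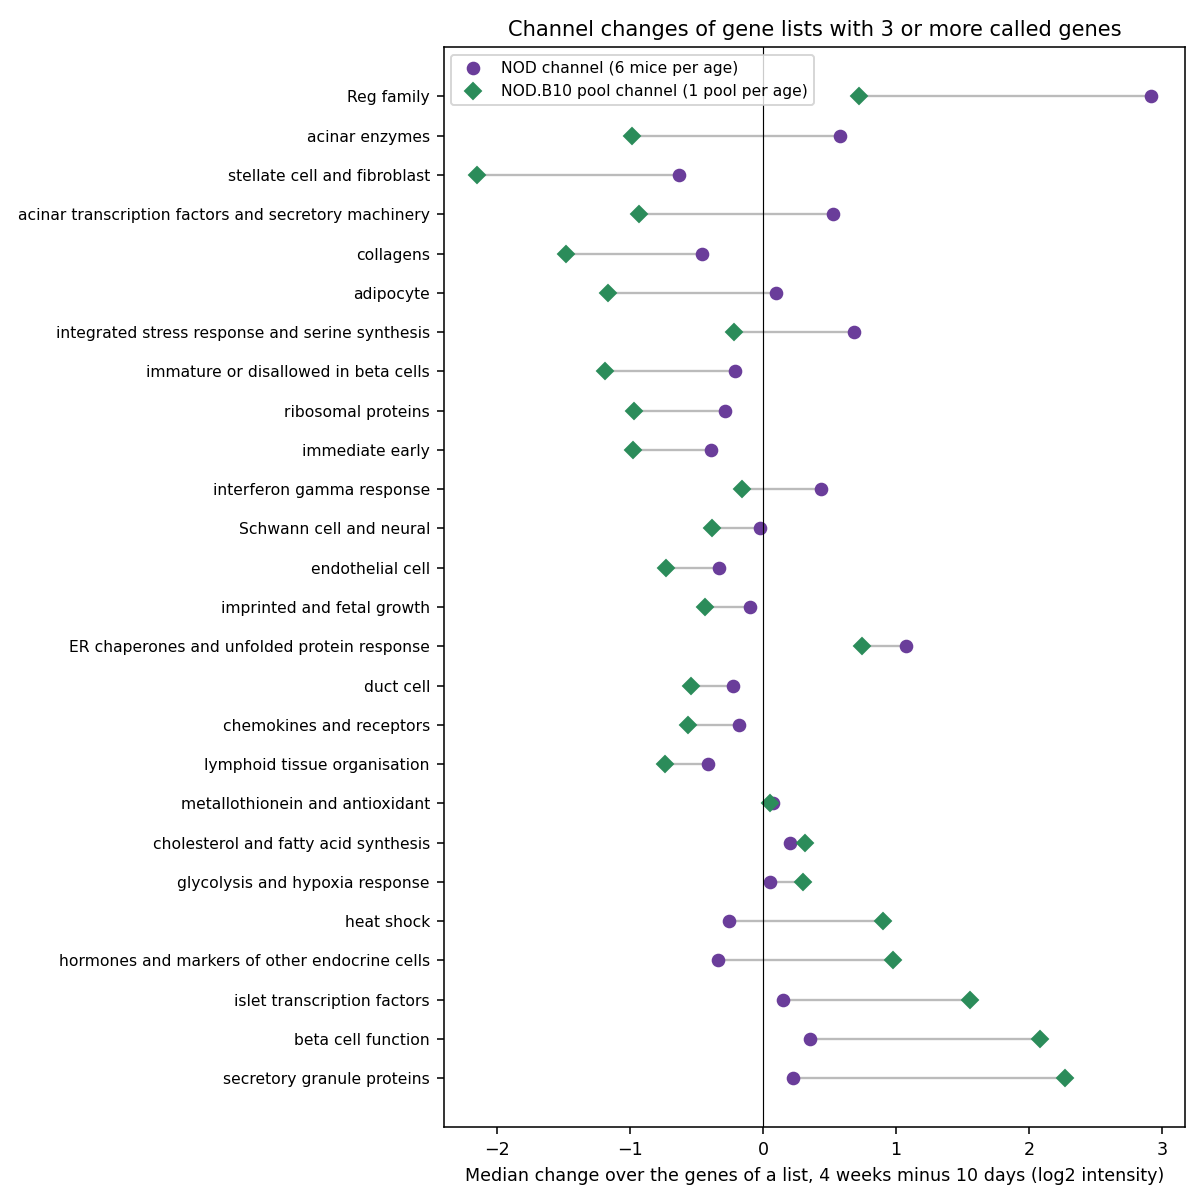
Median change in log2 intensity over the genes of each list, for the 26 lists with 3 or more called genes. Purple circles show the NOD channel (6 mice per age) and green diamonds the NOD.B10 pool channel (counted as 1 pool per age). The pool moved further from 0 than the NOD mice in the secretory granule list (2.27 against 0.22), and the NOD mice moved further in the Reg family (2.92 against 0.72).

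The counts of the adipocyte, endothelial, duct and Schwann lists are read against the 5.16% of all genes called higher and the 3.85% called lower. Adipocyte genes had a median ratio of -0.97 at 10 days and 0.09 at 4 weeks. Of 12, 6 rose and 1 fell (median 1.12), among them Fabp4, a fatty acid carrier (2.55; other probes 0.86 to 2.37), Car3 (2.13), Adipoq, which encodes adiponectin (1.71), and Cidec (1.55). Car3, Adipoq and Cfd were well above background in the pool on all 6 arrays of 10 days and on 0 of 6 at 4 weeks, and in the NOD channel on 3, 1 and 1 arrays of 10 days and on 1 array each at 4 weeks. Both channels were thus mostly near background at 4 weeks, so the ratio there and the size of these changes were not measured. Without any one of 10 day replicates 1, 3 and 6 and 4 week replicate 4, 0 adipocyte genes fell. Endothelial genes gave 5 rises among 22 with a median of 0.29, which was -0.05 less the median gene under median centring, with 1 rise and 6 falls. Vegfd, a lymphatic growth factor, rose by 2.74 and Vwf (von Willebrand factor) by 2.16, while Pecam1, present on all endothelium, was not called (0.22, adjusted p = 0.221). In the duct list 4 of 22 rose and 1 fell: Krt20 (2.59), Sox9 (2.06; other probes 0.55 to 1.36), Tff2 (1.77) and Krt19 (1.05) rose and Krt7 fell by 1.42, against 2 rises and 3 falls under median centring. The Krt19 call was lost without any one of 3 mice, 4 week replicate 4 among them. Of the Schwann list, S100b (1.46) and Erbb3 (1.44) rose and Th fell by 1.12, out of 13. Under median centring 0 rose and 4 fell, and 2 fell without any one of 10 day replicates 2 and 4 and 4 week replicates 5 and 6.

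The counts of the immune lists are read against the 9.01% of all genes that were called. In 9 of 27 T cell genes, a channel was not well above background on any array of at least 1 age. The same held for 8 of 14 NK and cytotoxic, 4 of 8 neutrophil and mast cell and 3 of 27 macrophage and dendritic genes. Over all genes it held for 3392 of 18071. For such genes the lack of a call does not show a lack of change. Of 27 T cell genes 2 rose, Cd6 (1.94) and Thy1 (1.05), but their second probes read 0.04 and -0.03, and the Thy1 call was lost without any one of 10 day replicates 2, 4 and 6 and 4 week replicate 5. None of 27 genes in the macrophage and dendritic list, 14 in the NK and cytotoxic list or 8 in the neutrophil and mast cell list was called by limma's moderated test, while 2, 0 and 2 of them had an unadjusted p under 0.05. Without 10 day replicate 1, 3 macrophage and dendritic genes and 1 neutrophil and mast cell gene rose, and without 10 day replicate 5, 2 macrophage and dendritic genes did. In the MHC list 1 of 24 was called (11 lower under median centring), H2-Q1, a class Ib gene in the region where the strains' haplotypes differ; it fell by 2.03, with 0.19 in the NOD channel and 2.22 in the pool. Without any one of 10 day replicates 3 and 5 and 4 week replicates 1 and 3, 1 MHC gene rose. The class II genes H2-Aa (0.02, adjusted p = 0.973) and H2-Ab1 (0.12, adjusted p = 0.838) were not called, and their mice of 10 days spread widely (SD 1.11 and 1.38).

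That spread was shared by several immune lists. Replicates 1, 3 and 5 of 10 days had medians above 0 for T cells (0.13, 0.45 and 0.84), for MHC (0.17, 0.36 and 0.53), for macrophages (0.34, 0.04 and 0.28) and for complement (0.22, 0.23 and 0.38), while replicates 2, 4 and 6 were below 0 in all 4 lists. For Ptprc (CD45, on all leukocytes) the mice of 10 days ran from -2.43 through -0.75 to 1.32, and those of 4 weeks from -0.97 through -0.54 to 0.95. The ages overlapped, and the change of 0.32 was not called (adjusted p = 0.641). Lyz2, lysozyme of macrophages, ran from -4.49 through -2.37 to 0.35 and then from -1.95 through -1.47 to 1.29 (change 1.16, adjusted p = 0.18; second probe 0.31).

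Glycam1 was the exception among genes of lymphocyte homing. Its product is a mucin that carries ligands of L-selectin on the venules of lymph nodes, through which lymphocytes enter. The ratio (mm9 chromosome 15, 103393339 to 103393398) ran from -1.35 through 0.14 to 3.104 at 10 days and from -3.88 through -3.34 to -1.60 at 4 weeks. Replicates 3 and 5 of 10 days were the highest, at 3.104 and 3.01. The ages were separate, which the naming rule required. The change was -3.88 (SE 0.72, adjusted p = 0.000125), of which -4.12 lay in the NOD channel and -0.24 in the pool. Of the 20 genes of lymphoid tissue organisation, 3 others rose: Selp (1.55, second probe 0.52), Ltbr (1.22) and Icam1 (1.21, second probe 0.75). The Icam1 call was lost without 10 day replicate 3 or 4 week replicate 4.

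Interferon-response genes differed among the mice of 4 weeks more than between the ages. Of 27 type I genes 1 rose, Ifitm3 (1.56, adjusted p = 2.47e-06), and of 26 interferon gamma genes 3 rose, Cxcl10 (1.94), Socs1 (1.68) and Cxcl9 (1.35). The gamma count was 5 without 10 day replicate 2 or 4 week replicate 3 or 5, and the type I count was 3 without 10 day replicate 5 and 2 without 10 day replicate 2 or 4 or 4 week replicate 1, 5 or 6. At 4 weeks the median of the type I list was 0.69, 2.07 and 0.59 in replicates 2, 4 and 6 and -0.24, -0.47 and -0.43 in replicates 1, 3 and 5. For the interferon gamma list the same mice had 0.99, 1.79 and 0.86 against -0.05, -0.51 and -0.48. Replicate 4 was the highest in both. At 10 days both lists lay between -0.41 and 0.59 in all mice. Left out in turn, single mice moved the median change of the type I list between -0.07 and 0.49.

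Cxcl10, a chemokine induced by interferon, ran from -3.17 through -1.38 to -0.78 at 10 days and from -2.16 through 0.36 to 2.51 at 4 weeks. The ages overlapped, and the call (adjusted p = 0.0202) was lost without any one of 4 mice. The monocyte chemokines Ccl2 (1.70) and Ccl7 (1.78) also rose, and the Ccl2 call was lost without any one of 5 mice (10 day replicates 3 and 5, 4 week replicates 2, 4 and 6). The B cell chemokine Cxcl13 was called too, but at 4 weeks it was well above background on 1 of 6 arrays in either channel, so the size of its change was not measured. Its ratio was high in 1 mouse of 4 weeks, replicate 5 (2.28, the others -0.20 to -0.01), and the call was lost without that mouse or 10 day replicate 6. Of 27 chemokine and receptor genes 5 rose and 0 fell (median 0.11), and 3 were called without 4 week replicate 2. Gbp2 and Ifit1 were not called (0.72, adjusted p = 0.302, and 0.41, adjusted p = 0.597).

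Metabolic, ribosomal and cell cycle genes follow, with counts that depend on the centring. Those counts are read against the 9.01% of all genes that were called, 5.16% higher and 3.85% lower. Under median centring 17 respiratory chain, 13 cell cycle, 1 ribosomal, 11 metallothionein and antioxidant and 14 cholesterol and fatty acid genes were lower. In each of these lists 0 were then higher. Of 39 respiratory chain genes 0 were called by limma's moderated test (median 0.09; 20 at an unadjusted p under 0.05). Of 39 cell cycle genes 1 was called, Ccnd2, which fell by 1.31 (cyclin D2 of dividing beta cells), and Mki67 stayed below the pool at both ages (10 days -1.63 to -0.48, 4 weeks -1.21 to -0.40). Ribosomal protein genes had small changes of one sign: 39 of 40 were above 0, with a median of 0.73 (0.36 less the median gene under median centring), and 4 passed the 2-fold floor, all of which lost the call with the scanner's log ratios. The count was 7 without 10 day replicate 2, 8 without 10 day replicate 4 and 11 with the slide as a block. Of 23 metallothionein and antioxidant genes, 3 rose and 4 fell, among them the glutathione peroxidases Gpx3 (-2.02) and Gpx2 (-1.73). In the cholesterol and fatty acid list 3 of 27 fell, among them Acly, the ATP citrate lyase that supplies acetyl groups (-1.72).

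Deaf1, a transcription regulator, changed by 2.16 (SE 0.53, adjusted p = 0.00179) by its brighter probe (mm9 chromosome 7, 148500838 to 148507018) and by 0.00 by its other probe. Its ratios ran from -2.02 through -0.58 to 0.33 at 10 days and from 1.07 through 1.58 to 1.98 at 4 weeks. Here the NOD channel rose by 1.89 while the pool fell by 0.28. Among the called genes that were higher at 4 weeks, the NOD channel moved more in 220, and among those that were lower, in 32.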

How the data were processed

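Each of the 24 arrays (4 ages, 6 mice each) carried 1 NOD mouse in Cy5 and the pool of its age in Cy3. The deposited scanner files hold spot intensity and a log10 ratio per spot, and the deposited value table holds a log2 ratio per probe, which equalled the scanner's ratio for 99.1% to 99.8% of probes at a tolerance of 1e-05. Per the file headers, the authors extracted spots with Agilent Feature Extraction 10.7.3.1, and probe positions are on mm9. From the mean and background intensity, ratios were computed with limma 3.58.1 in R 4.3.3: normexp background correction (offset 50), loess within arrays with 1639 control spots at weight 0, and averaging over the spots of a probe. Of 41174 probes, 25910 that were well above background in a channel on at least 6 arrays were kept, and the brightest probe stood for its gene. Symbols came from RefSeq tables by accession for 27050 probes and by current or older symbol for 4154 and 589; 9381 kept the file's name. All 24 arrays entered one linear model with 1 coefficient for each age, tested with limma's moderated test and Benjamini-Hochberg adjustment over 18071 genes. Channel parts were taken after loess and Aquantile, and no test was made on them. The fit was tested on simulated data. The labels call the NOD mice biological replicates, so p-values measure the spread between mice but leave out the spread between NOD.B10 mice. The number of arrays limits the precision.

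Named genes were the 10 largest rises and 10 largest falls without overlap between ages, up to 4 called genes of each list with the largest change, and a set of key genes. Of the genes it names, 3 are not reported here, and others stand only in counts. The members, lists and named genes were chosen with earlier results of these data known. Other backgrounds, normalizations, filters, probe rules, blocks and left-out mice were tried.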

Additional observations from a re-analysis of the deposited data

Results flagged for a closer look

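In 368 tests of a group of 6 mice for a single mouse far from the rest, 24 (6.52%) passed. Normally distributed values would give about 1 in 20, but the tests share mice and genes, so the shares cannot be compared as a test. Replicate 5 of 4 weeks accounts for 9 of the 24. Its ratio was -1.6 for Glycam1 (others -3.88 to -3.15), 2.28 for Cxcl13 (others -0.2 to -0.0149), 1.07 for Ldha, -1.63 for Hsph1, 0.296 for Hmox1, 0.952 for Ptprc (others -0.967 to -0.453), 0.113 for Cd3d and -2.02 for Ddit3 (others 0.326 to 1.22). Its median over the B and plasma cell list was 0.278, the others lying between -0.072 and -0.0499.

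Replicate 1 of 10 days was far from the other mice of its age in 6 tests. It was low for the acinar genes Reg3a (-3.98), Rbpjl (-3.3) and Cel (-1.37) and for the median of acinar transcription factors and secretory genes (-1.67, others -0.514 to 0.14). It was high for Fbln1 (-1.37, others -2.58 to -2.37) and for the neutrophil and mast cell median (0.423). Replicate 2 of 10 days stood apart for Sox9 (-0.0562), Pdk4 (-0.513) and the type I interferon median (0.59, others -0.0803 to 0.108).

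Replicate 3 of 4 weeks stood apart for Ins1 (-2.31, others -1.52 to -1.11), Eno2 (-0.965) and Rplp1 (1). Replicate 4 of 4 weeks did so for Sdc1 (1.92), Krt19 (1.96, others 0.0213 to 0.308) and the median of fatty acid and ketone metabolism (-0.216).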

How the results depend on the processing

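Against 1628 called genes (57.2% higher), the count was 5905 (1.88%) with median centring, 4542 (45.8%) with the scanner's log ratio, 3761 (48.2%) in the deposited value table and 3077 (53.4%) with normexp without offset, and 9209 with no fold floor. With the slide as a fixed block it was 1871 (52.2%), and genes with an adjusted p under 0.05 at any fold numbered 5130 in place of 9209. The cause was not tested, except that the slide block leaves 2 mice per age. Leaving out each mouse in turn gave 1534 to 1744 called genes, of which 55.4% to 59.4% were higher, 8445 to 9257 genes at any fold, and 1362 to 1393 genes in which the pool moved more. Replicate numbers did not pair the mice (correlations of same-numbered deviations from -0.15 to 0.61), and only the mice numbered 5 and 6 correlated best with their own number; the replicate block gave 1638 called genes. Median centring turned the sign of Thy1 (-0.0634), C2 (-0.0134), Krt19 (-0.0833) and Dlk1 (-0.0868), and 54 of the 127 called named genes lost their call; with the other settings tried, 0 to 24 lost it, most with the slide as a fixed block, and 0 of the 127 changed sign. Of the 19 named genes not called, 13 changed sign with median centring and 0 to 3 with another setting. Leaving out single mice ended the call of 13 of the 127. Relative to the median gene, median centring also put the endothelial, complement, endoplasmic reticulum, cell cycle and respiratory chain medians below 0 and the T cell and NK medians above it. The channel split, run on 2 scalings added after seeing the data, and the slide as a random block (1549 called genes), likewise added, stayed within 1.5 times. Each age is counted as having 1 pool, which the labels do not state, so the pools' change is taken to have no replicate. In addition, 20 called genes were not well above background in a channel at an age.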
